A study of Saccharomyces cerevisiae with 8 samples.

Results

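Ribosome biogenesis genes encode the factors that transcribe, cleave, modify and fold ribosomal RNA and build it into ribosomal subunits. A list of 54 such genes of budding yeast was examined for sites of RNA polymerase II. Of these, 40 lie on chromosomes II, V and XI to XVI, where the deposited positions can be set beside the R64 gene table, and 14 lie on other chromosomes and are not analysed here (KRR1, NHP2, NOP1, RRP8, UTP4, DBP3, UTP22, NOP7, NSR1, NOP10, GAR1, IMP3, UTP10 and MPP10). The 40 stand among 3432 placed protein-coding genes, of 6002 nuclear ones.

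Polymerase II was located by chromatin immunoprecipitation with an antibody against Rpb1, its largest subunit. Cells of strain AM1003 carrying GAL::HO, a galactose-driven gene for the endonuclease that makes the double-strand break, were collected after 6 h in 2% galactose (2 libraries) and before galactose, after overnight growth in raffinose (0 h, 2 libraries). The titles call the cells WT in all libraries. Strain, raffinose pre-growth and GAL::HO are common to both groups, so galactose, the break and 6 h of culture cannot be told apart. Whether the replicates are separate cultures is not labelled, so their spread may be technical. Another 4 libraries are inputs and are not analysed here.

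In budding yeast these genes are transcribed by polymerase II as a large group whose activity follows nutrient supply and growth rate. Their products act in order. Polymerase I copies the ribosomal DNA, small nucleolar ribonucleoproteins guide cleavage and modification of the transcript, a large particle on the nascent RNA (the small-subunit processome) yields the small subunit, and a second set of factors, including helicases and GTPases, matures the large subunit.

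Each library came as a list of peak summits with a score, which is a −log10 value written by the peak caller. At 6 h, 762 of 1288 and 658 of 1074 summits lay on the chromosomes used, and at 0 h, 711 of 1186 and 706 of 1194. A score grows with read depth, which is unknown, so scores are given to describe a summit, and the times are compared only as ranks. The percentile used below is the percentage of a library's summits on these chromosomes that score no higher. A gene had a summit where one lay between its annotated start and end or within 250 bp. With 2 libraries against 2, no exact permutation test can give a p below 0.333, so the results are descriptions set beside all placed genes. No occupancy level can be read from such lists, and a missing summit is not absence of polymerase. The build behind the positions is not stated, so a distance to a gene end carries an error that was gauged from the difference between strands given with the positions.

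Ribosome biogenesis genes had summits more often after 6 h in galactose, in both libraries. A summit was present at 29 and 27 of the 40 genes in 6 h replicates 1 and 2, against 15 and 18 in 0 h replicates 1 and 2. As shares of the list these are 72.5% and 67.5% in 6 h cells against 37.5% and 45% in 0 h cells, so the 2 times did not overlap. Over all placed genes the shares were 23.3% and 20.4% in 6 h cells against 19.8% and 19.5% in 0 h cells.

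**Figure D1:**
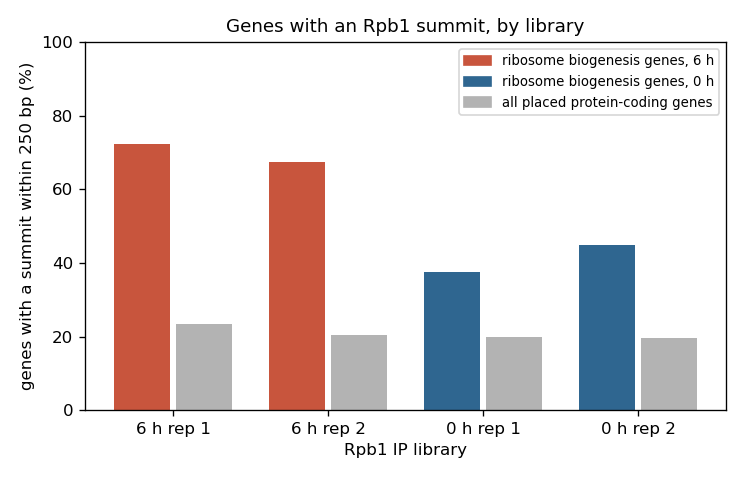
Percentage of genes with an Rpb1 summit within 250 bp in each library (vertical axis), for the 40 ribosome biogenesis genes (coloured bars) and all 3432 placed protein-coding genes (grey bars). The coloured bars stand at 72.5% and 67.5% at 6 h and at 37.5% and 45% at 0 h, while the grey bars stay between 19.5% and 23.3%.

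By gene, 9 of the 40 were 6 h-only, which means a summit in each 6 h library and none at 0 h (RRP5, UTP20, ERB1, SOF1, IMP4, LTV1, REI1, NOP12 and HAS1). That is 22.5% of the list, against 4.31% of all placed genes. Among genes with no 0 h summit, it was 9 of 21 list genes against 5.65% of all. The opposite pattern was seen at 2 list genes, NOG2 and RPA190, or 5% against 3.06% of all placed genes. A summit in all 4 libraries was found at 11 list genes, or 27.5% against 9.88%. Another 13 showed other patterns, and 5 (NOP2, RRP9, NOC3, URB1 and UTP15) had no summit in any library, or 12.5% against 67%. The list genes were longer, with a median of 1726.5 bp against 1218 bp, which widens the target for a summit. Among placed genes of 1000 bp or more the 6 h-only share was 4.68% and the share with no summit 68.6%. Without 6 h replicate 2, when the rule asks for a single 6 h library, 14 genes were 6 h-only, against 7.4% of all placed genes, and 3 were 0 h-only, against 3.85%.

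**Figure D2:**
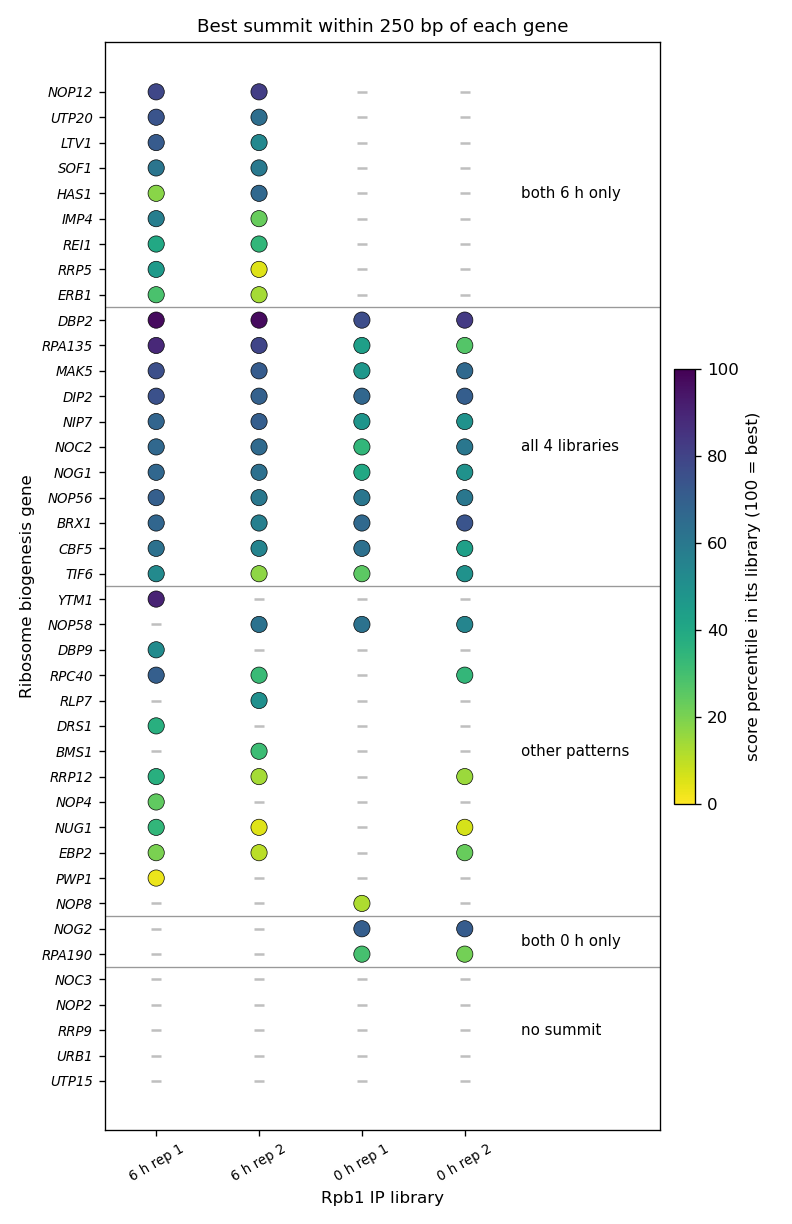
Score percentile of the best summit within 250 bp of each of the 40 genes (rows) in each library (columns), where 100 is the best score of the library and a dash means no summit. Genes are grouped by the libraries with a summit, and the 9 genes at the top have summits at 6 h only.

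Genes of the small-subunit processome made up 4 of the 9 genes with 6 h-only summits. Of 8 placed genes in this group, IMP4, SOF1, UTP20 and RRP5 were 6 h-only, DIP2 had summits in all 4 libraries, BMS1 in 1, and RRP9 and UTP15 in none. The 6 h-only call took 22.5% of the list and 4.31% of all placed genes. IMP4 (chromosome XIV, 485607 to 486479), which encodes a partner of Mpp10 in the U3 particle, had 6 h scores of 9.10 and 5.0, at 602 and 833 bp from the start codon, and no summit at 0 h. Its nearest 0 h summits lay 7911 and 8077 bp from the midpoint of the 6 h pair. SOF1 (chromosome XII, 127523 to 128992), encoding a U3-associated protein, had 6 h scores of 10.6 and 13.1 and no summit at 0 h. The 6 h positions differed by 3 bp and lay at the last bases of the gene. PSR1, on the other strand, ends 341 and 338 bp from these summits.

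RRP5 (chromosome XIII, 725934 to 731123) encodes a long RNA-binding protein needed for both subunits, and its summits were spread along the gene. There were 7 in 6 h replicate 1, with scores of 2.97 to 6.52, and 2 in 6 h replicate 2, with scores of 3.18 and 2.26, against 0 within 500 bp at 0 h. In the second library both were near the bottom of the list, the better at percentile 4.71. The best summit of 6 h replicate 1, of 6.52, lay 228 bp past the RRP5 stop codon. It was 55 bp past the end of MTF1, a convergent gene. Inside RRP5 the best score in that library was 4.73. At 2 places the replicates lay within 250 bp of each other, centred 1519 and 4824 bp from the start codon.

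UTP20 (chromosome II, 227636 to 235117) encodes a very large processome component. Its 6 h summits had scores of 19.0 and 15.5 and lay 19 and 79 bp before the end of the gene. At 0 h there were summits of 31.2 and 33.0 just outside the window, 317 and 260 bp past the stop codon. HTA2, a histone H2A gene that ends 276 bp away on the other strand, held the first of these 0 h summits inside its coding region, and the second lay 17 bp past its end. Measured from HTA2, the 6 h summits lay 296 and 356 bp past its stop codon. The midpoint of the 6 h pair lay 366 and 309 bp from the 0 h summits, and the lists do not show which of the convergent genes a summit belongs to.

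At DIP2, a processome subunit gene, the best summits of all 4 libraries lay within 68 bp past the stop codon. They were 33 and 68 bp past the stop codon at 6 h and 52 and 27 bp past it at 0 h, with scores of 19.7 and 19.0 at 6 h, against 12.5 and 15.6 at 0 h. As percentiles these were 75.2 and 69.1 at 6 h, against 66.9 and 70.5 at 0 h, and they overlapped. The same summits lay 238 to 279 bp past the end of ZRT2, a convergent gene. A weaker DIP2 summit of 5.12, in 6 h replicate 1, lay inside the gene, 1504 bp from the start codon. BMS1, which encodes the processome GTPase, had 6 h summits of 4.36 and 6.10 at 306 and 212 bp past the stop codon with none at 0 h within 500 bp, but the first lay outside the window. Both sit inside the convergent gene SAR1.

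Of the later small-subunit factors, LTV1 was 6 h-only and RRP12 was mixed. LTV1 (chromosome XI, 176781 to 178172) had scores of 16.6 and 10.6 at 6 h, 52 and 88 bp before the end of the gene. A 0 h summit in replicate 2, with a score of 5.06, lay 262 bp past the stop codon, just outside the window. RRP12, which encodes an export factor, had its best summit in the window with scores of 5.12 and 3.97 at 6 h, and of 3.91 in 0 h replicate 2 alone.

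Among the genes of large-subunit assembly, the 6 h-only calls were ERB1, HAS1, NOP12 and REI1. ERB1 (chromosome XIII, 368094 to 370517) encodes a protein that binds Nop7 and Ytm1 in the precursor of the large subunit. Its best summits inside the gene scored 4.41 and 3.97 at 6 h, at 1523 and 1430 bp past the gene's start. The nearest 0 h summits lay 20698.5 and 21483.5 bp from the midpoint of this pair. REI1 (chromosome II, 739841 to 741022), whose product acts on the late cytoplasmic particle, had 6 h scores of 5.52 and 6.46, with none at 0 h within 500 bp. These 2 summits lay 797 and 1124 bp from the start codon, so they were not a single shared position. All 4 values in ERB1 and REI1 were in the lower-scoring 50% of their libraries, at percentiles from 13.5 to 40.03.

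HAS1 (chromosome XIII, 850074 to 851591) encodes a DEAD-box helicase. Its better-scoring site lay past the gene, with scores of 11.7 and 17.0 at 6 h, at 307 and 175 bp past the stop codon, and 5.43 in 0 h replicate 1, at 299 bp. The call depends on the window edge, since the first and the last of these 3 summits lay outside it, inside the convergent gene ABZ2. In 6 h replicate 1 the summit inside the window was a weaker one of 3.64, which lay 829 bp from the HAS1 start codon. NOP12 (chromosome XV, 251267 to 252646), encoding an RNA-binding protein of large-subunit processing, had 6 h summits of 24.0 and 36.6 upstream of its start codon, by 188 and 233 bp. They lay 315 and 270 bp past the stop codon of RPS15, the ribosomal protein gene next to it on the same strand. RPS15 itself had no summit inside the gene at 6 h, against summits of 35.3 and 27.8 at 0 h. A weaker pair of 3.96 and 4.94 lay past the NOP12 stop codon at 6 h, by 257 and 245 bp, and 94 and 106 bp past the end of the convergent gene NGL1.

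At YTM1, which encodes a partner of Erb1, the strongest nearby site lay past the end of another gene. Summits of 40.3 and 46.7 at 6 h and of 52.0 and 43.4 at 0 h lay 229 to 284 bp before its start codon. All 4 were within 63 bp past the end of SNR8, a small nucleolar RNA gene upstream. Only 1 of the 4 came within 250 bp of YTM1. The only summit near the end of YTM1 was one of 2.65 in 6 h replicate 1.

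**Figure D3:**
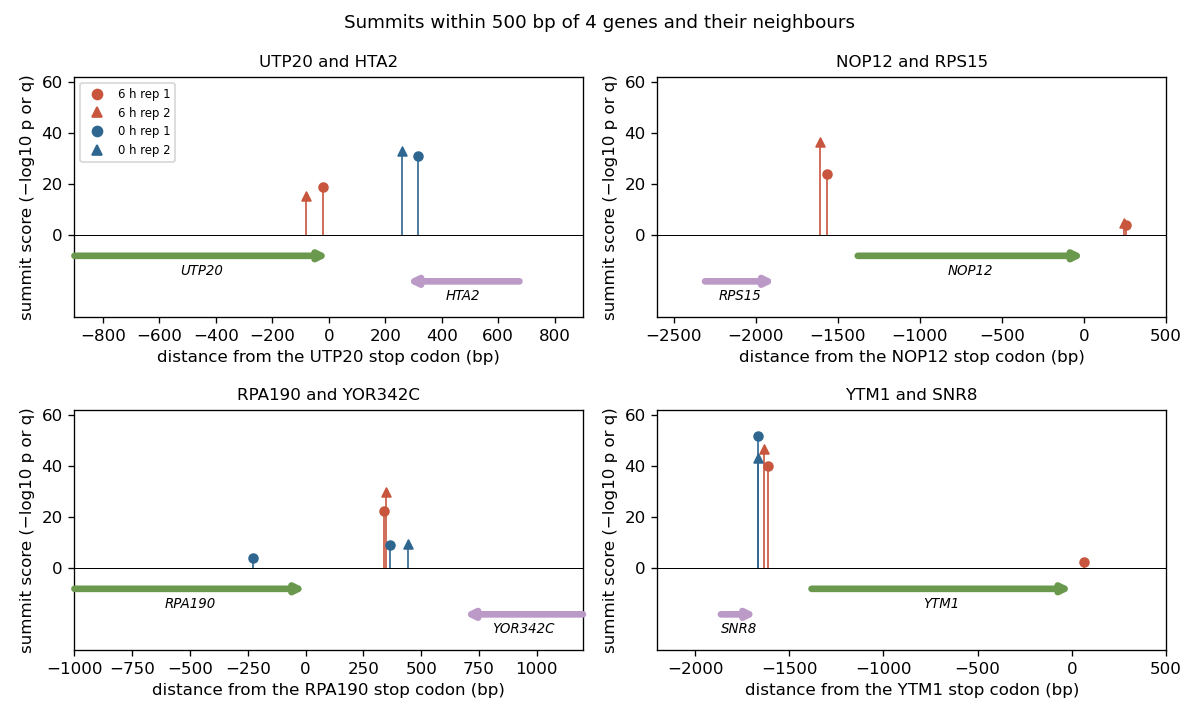
Summits within 500 bp of UTP20, NOP12, RPA190 and YTM1, with score (vertical axis, −log10 scale of the peak caller) against distance from the stop codon of the named gene (horizontal axis). Arrows show that gene and its neighbour in the direction of transcription, cut at the panel edge. The 6 h summits of UTP20 and the stronger 6 h pair of NOP12 sit 270 to 356 bp past the ends of HTA2 and RPS15, and all 4 strong summits near YTM1 sit past the end of SNR8.

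The helicase gene DBP2 had the best-scoring summits of the list within its own gene. DBP2 (chromosome XIV, 413639 to 416281) encodes a DEAD-box helicase that also acts on messenger RNA. Its best scores were 61.6 and 95.6 at 6 h, against 21.4 and 29.4 at 0 h. In rank these summits were 24th and 20th of their 6 h libraries, and 166th and 125th of their 0 h libraries. The distances from the start codon were 1939 and 1915 bp in 6 h cells against 1866 and 184 bp in 0 h cells. MAK5, another helicase gene, had its best summit within 59 bp of the stop codon in every library, with scores of 21.0 and 22.0 at 6 h, against 7.18 and 12.8 at 0 h. These MAK5 summits also lay 211 to 290 bp past the end of SUP45, a convergent gene. DRS1 and DBP9 encode helicases of the large subunit and had summits within 250 bp in 6 h replicate 1 alone, with best scores of 5.12 and 7.69. DBP9 also had one of 5.67 in 6 h replicate 2, 256 bp past the stop codon.

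Of 11 placed genes for early large-subunit factors, NIP7, BRX1 and NOC2 had summits in all 4 libraries. NIP7, whose product joins the precursor of the large subunit, had scores of 13.8 and 21.5 at 6 h, against 7.24 and 7.21 at 0 h. The 6 h summits lay 213 and 179 bp past its stop codon and the 0 h summits 213 and 44 bp past it. They also lay past the end of SRP72, a convergent gene. Those distances were 37 and 71 bp at 6 h and 37 and 206 bp at 0 h. NOC2, a component of the Noc complexes, had scores of 13.2 and 16.4 at 6 h, against 5.47 and 10.1 at 0 h. The same summits lie 149 to 219 bp past the stop codon of RET1, a polymerase III subunit gene that converges on NOC2. BRX1 did not follow this order, with 13.4 and 12.1 at 6 h and 12.4 and 19.3 at 0 h. These BRX1 summits lay 142 to 197 bp past the end of ATP19, a convergent gene.

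Other early factors gave weak or partial signals. EBP2 had scores of 3.86 and 3.76 at 6 h, at 6 bp before and 2 bp past the end of its gene, and 4.63 in 0 h replicate 2 alone. RLP7, encoding a relative of a ribosomal protein, had a summit past its stop codon in every library, with scores of 7.01 and 9.94 at 6 h, against 6.27 and 5.03 at 0 h. Only 1 of these, in 6 h replicate 2, lay within 250 bp. NOP4 had a single summit of 3.99 and PWP1 one of 2.41, both in 6 h replicate 1, and NOP8 had one of 3.45 in 0 h replicate 1. URB1 had 6 h summits of 5.12 and 5.36 beyond the window, 316 and 294 bp past its stop codon, and no 0 h summit within 500 bp.

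GTPase genes of the large subunit differed from one another. NOG1 (chromosome XVI, 370978 to 372921) had best scores of 13.3 and 14.8 in 6 h cells, found 754 and 1850 bp into the gene. In 0 h cells the best scores were 6.05 and 7.21, found 224 and 1516 bp into it. Both 0 h libraries held a summit near the start, with a midpoint 239 bp from the start codon, with no 6 h summit within 500 bp of it. NOG2 (chromosome XIV, 721120 to 723112) had 6 h summits of 25.8 and 27.3 past its stop codon, by 460 and 484 bp, beside the start of POP2, the next gene on the same strand. Inside the gene there were none at 6 h, against summits of 14.0 and 16.2 at 0 h. The 0 h summit of replicate 2 lay in SNR191, a small nucleolar RNA gene within the NOG2 span. NUG1 had weak summits, with best scores of 4.91 and 3.19 at 6 h and 3.25 in 0 h replicate 2 alone. TIF6, encoding the factor that keeps the large subunit from joining too early, had best scores in the window of 7.70 and 4.30 at 6 h and of 4.54 and 7.31 at 0 h, and these overlapped.

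Small nucleolar ribonucleoprotein genes had summits at both times. NOP56 and NOP58 encode core proteins of the box C/D particles that guide methylation. NOP56 (chromosome XII, 546097 to 547611) had scores of 14.9 and 13.2 at 6 h, at 149 and 187 bp past the stop codon, against 9.96 and 10.1 at 0 h. As percentiles these were 69.9 and 60.03 at 6 h, against 60.6 and 60.3 at 0 h, so the ranges overlapped. The 0 h replicate 1 summit was at the same base as that of 6 h replicate 1, and the 0 h replicate 2 summit lay 755 bp from the start codon. The 6 h summits also lay 93 and 55 bp past the end of PBA1, a convergent gene. Within the 250 bp window NOP58 had a summit of 14.5 in 6 h replicate 2 alone, 863 bp from the start codon, against 10.6 and 8.14 in the 0 h libraries, at 484 and 508 bp. Past its stop codon, by 282 to 376 bp, there was a site in all 4 libraries, with scores of 15.7 and 12.5 at 6 h, against 3.77 and 8.14 at 0 h. CBF5 encodes the pseudouridine synthase of the box H/ACA particles. Its best summits scored 11.4 and 11.3 at 6 h, against 10.9 and 6.32 at 0 h. The 6 h ones were different sites, 110 bp past the stop codon and 781 bp from the start codon. Those of 0 h lay 502 and 738 bp from the start codon. The percentiles, 63.3 and 55.0 at 6 h, against 63.4 and 43.6 at 0 h, overlapped. A site 110 and 131 bp past the CBF5 stop codon was present in both 6 h libraries, and its midpoint had no summit of 0 h cells within 500 bp. The same summits lay 102 and 81 bp past the end of RFX1, a convergent gene.

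Genes for the largest polymerase I subunits had strong 6 h sites past their stop codons. RPA190 (chromosome XV, 960987 to 965981) encodes the largest subunit. Past its end there were scores of 22.3 and 30.1 at 6 h, at 341 and 347 bp, and 9.29 and 9.44 at 0 h, at 366 and 441 bp. The same summits lay past the end of YOR342C, a convergent gene. Those distances were 344 and 338 bp at 6 h and 319 and 244 bp at 0 h. Inside RPA190 there were summits at 0 h only, with best scores of 4.84 and 4.28 near the start codon. That pattern gives RPA190 its 0 h-only call, although the strongest site near it was present in all 4 libraries. The lists do not show which of the convergent genes that site belongs to. RPA135 (chromosome XVI, 577585 to 581196) encodes the second subunit. Its site past the stop codon had scores of 38.3 and 34.0 at 6 h, at 232 and 205 bp, and 7.02 and 7.83 at 0 h, at 288 and 267 bp. Of these, the summit of 6 h replicate 1 and both 0 h summits lay inside SUT2, a convergent gene, and that of 6 h replicate 2 lay 22 bp past the SUT2 end. With summits inside other protein-coding genes left out, RPA135 was no longer among the genes with summits in all 4 libraries. The 0 h sites lay just outside the window. Inside it the best 0 h scores were 6.49 and 4.91, at 499 and 1072 bp from the start codon. RPC40, encoding a subunit common to polymerases I and III, had 14.9 and 6.11 at 6 h and 6.22 and 5.47 at 0 h, all 172 to 280 bp past its stop codon and beside the convergent gene GLD1.

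Several summits lay close to the 250 bp limit. Just inside it lay the 6 h summits of NOP12 (233 and 245 bp), RPA135 (232 bp) and YTM1 (229 bp). Just outside it lay those of YTM1 (251 bp), DBP9 (256 bp) and NOP12 (257 bp) at 6 h and of UTP20 (260 bp), LTV1 (262 bp) and RPA135 (267 bp) at 0 h. With gene bodies alone 7 genes were 6 h-only (RRP5, UTP20, ERB1, SOF1, IMP4, LTV1 and REI1), against 2.19% of all placed genes, and 3 were 0 h-only (NOP56, NOG2 and RPA190), against 3.12%. With 500 bp on each side there were 9, against 4.98%, and UTP20, LTV1 and HAS1 were replaced by URB1, DBP9 and BMS1. With 500 bp, 0 genes were 0 h-only, against 2.65%, and 18 had summits in all 4 libraries, against 14.8%. RRP5, ERB1, SOF1, IMP4 and REI1 were 6 h-only in all 3 windows. Another rule asked for a position shared by both libraries of a time, within 250 bp of each other, and no summit of the other time within 500 bp. It gave 6 genes for 6 h (CBF5, RRP5, ERB1, NUG1, SOF1 and IMP4), against 3.85% of all placed genes, and 3 for 0 h (NOP56, NOG1 and RPA190), against 3.44%.

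Where a summit was present throughout, the median rank of ribosome biogenesis genes was higher in both 6 h libraries than in either 0 h library. Over the 11 genes with summits in all 4 libraries, the median percentile was 67.7 and 65.7 in 6 h cells against 48.0 and 60.3 in 0 h cells. For the 339 placed genes with summits in all 4 libraries it was 69.2 and 65.3 at 6 h, against 67.5 and 67.3 at 0 h. Both 6 h percentiles exceeded both 0 h percentiles at 6 of the 11 genes (DBP2, NOG1, NIP7, RPA135, NOC2 and MAK5), against 32.2% of the 339. Both were below at 0 of the 11, against 28% of the 339. With 500 bp on each side the counts were 10 of 18 above, against 30.8%, and 2 of 18 below (UTP20 and YTM1), against 26.4%. NOP58, NOG2, RPA190 and RLP7 joined the genes above. The best percentiles in the list were 97.0 and 97.1, at DBP2 at 6 h, and those of RPA135 were 89.0 and 79.6 at 6 h, against 43.9 and 26.9 at 0 h. These 0 h values belong to summits 499 and 1072 bp from the RPA135 start codon. At the 0 h site past its stop codon, outside the window, the percentiles were 46.1 and 52.8. With the better-scoring 50% of each library, 4 list genes had summits in all 4 libraries and 1 of these, DBP2, was above. The difference of the medians (6 h minus 0 h) was then -0.836 percentile points, against 12.5 with all summits. With summits in or up to 500 bp past another gene left out, only DBP2 and NOG1 had summits in all 4 libraries. Both ranked higher at 6 h.

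**Figure D4:**
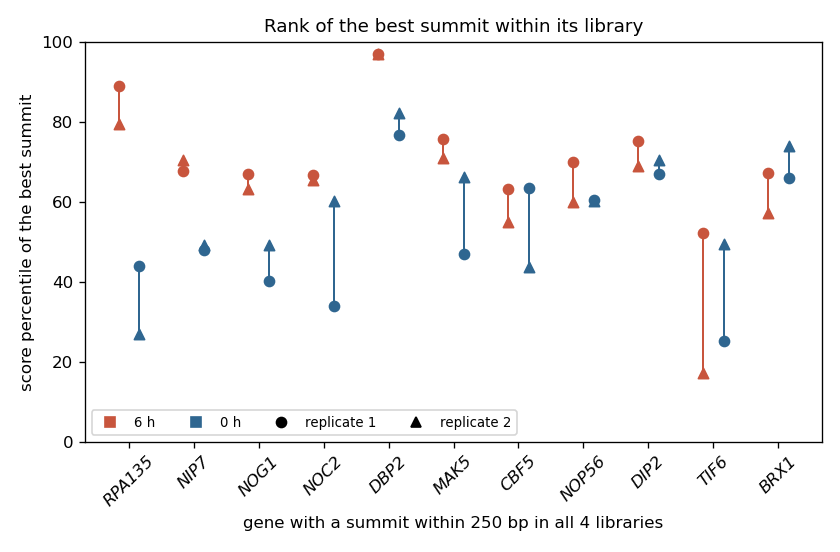
Score percentile of the best summit (vertical axis) in 6 h and 0 h libraries for the 11 genes with a summit within 250 bp in all 4 libraries, ordered by the difference of means. Circles are replicate 1 and triangles replicate 2, joined by a line. The ranges do not overlap at RPA135, NIP7, NOG1, NOC2, DBP2 and MAK5. The RPA135 points at 0 h are of other sites than those at 6 h.

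Positions of the best summit were compared along the direction of transcription, as the 6 h mean minus the 0 h mean. The median displacement over these 11 genes was 67.5 bp, from -363.5 bp (TIF6) to 3044 bp (RPA135), and 8 of the 11 were positive, which is downstream. The median over all 339 genes was 84.5 bp, and 238 of them were positive. The list median was 105.75 bp without 6 h replicate 1, 10 bp without 6 h replicate 2, 152 bp without 0 h replicate 1 and 19 bp without 0 h replicate 2. It was 27 bp with 500 bp on each side and 242 bp with the better-scoring 50% of summits. The 6 h pair was downstream of the 0 h pair, without overlap, at 3 of the 11 genes (CBF5, DBP2 and RPA135), against 40.7% of the 339, and upstream at 0, against 10.3%. The RPA135 value comes from the window, since the stronger 0 h site past its stop codon lay beyond 250 bp. The TIF6 value also depends on the window. Its better-scoring summit in 6 h replicate 2, of 6.92, lay 397 bp past the stop codon. The summit used, of 4.30, lay 57 bp from the start codon. With 500 bp on each side the 6 h pair was upstream of the 0 h pair at RPA135, UTP20, RPA190 and RPC40, or 4 of 18 genes, against 13.8%, and downstream at CBF5, DBP2, YTM1 and NOG2, also 4 of 18, against 39.8%. Leaving out a library made the rule less strict. The downstream count was then 7 of 12 without 6 h replicate 1 (against 54.1% of genes with a summit in each library left), 3 of 11 without 6 h replicate 2 (53.1%), 10 of 15 without 0 h replicate 1 (56.3%) and 5 of 11 without 0 h replicate 2 (52.8%).

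Distances to the stop codon varied among these 11 genes. The median distance past the stop codon over the 11 genes was 67 and 50 bp at 6 h, against 52 and 7 bp at 0 h. For the 339 genes it was -26 and -9 bp at 6 h, against -146 and -188 bp at 0 h, where a negative value is inside the gene. A summit past the stop codon was found at 6 of the 11 genes in each 0 h library, against 112 and 105 of the 339. The replicates differed by a median of 35 bp at 6 h and 169 bp at 0 h over the 11 genes. These distances depend on how well the deposited positions match R64. Over genes with summits in all 4 libraries (500 bp window), the 2 strands gave different medians on some chromosomes. On XIV the values were -134 and -170 bp for the forward strand and 286 and 227 bp for the reverse strand at 6 h, and on XI they were -213 and -174.5 bp and 124 and 108 bp. At 0 h the XIV values were -125 and -124 bp for the forward strand and -279 and 32 bp for the reverse strand, so the gap was not the same in each library. On XI at 0 h they were -373 and -296.5 bp and -49 and -177 bp. Moving the summits of each chromosome to close the 6 h gap, by 7.88 to 204 bp, gave 12 genes with 6 h-only summits, which included all 9 above, against 4.52% of placed genes, and a median displacement of 8.5 bp.

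**Figure D5:**
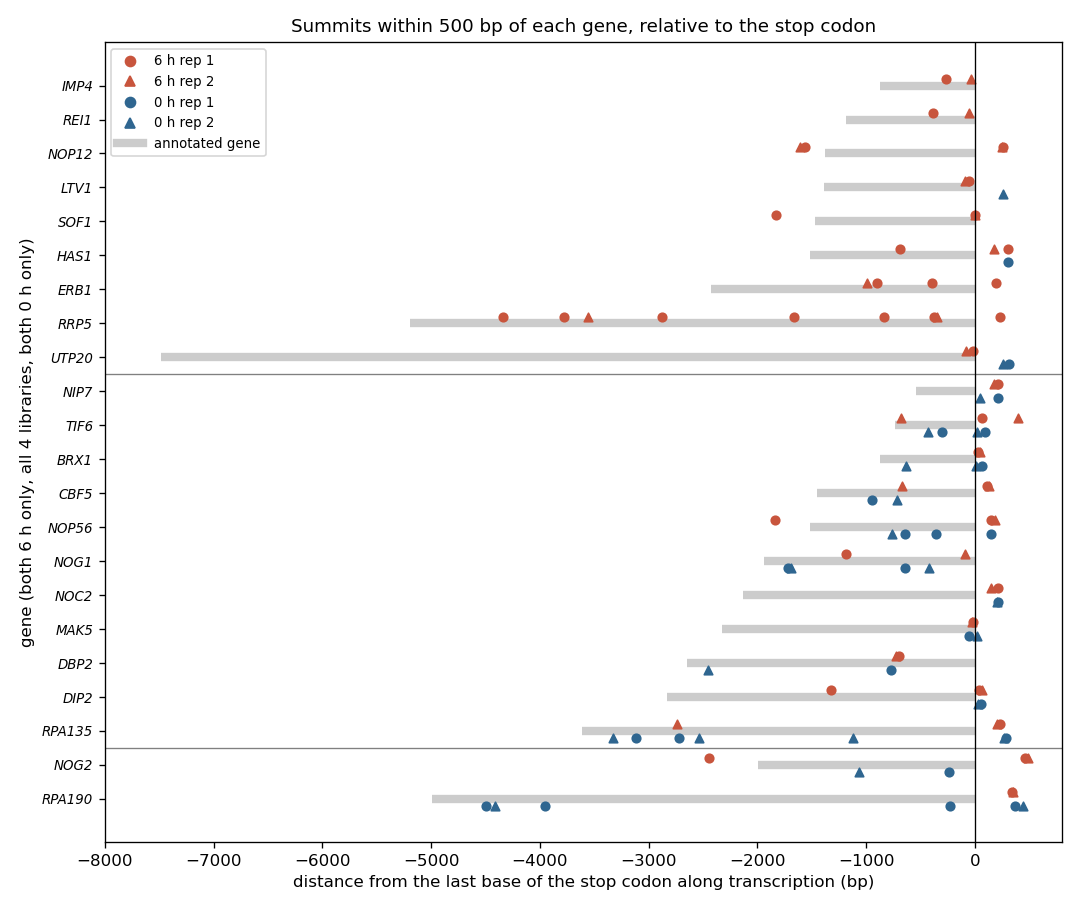
Distance of each summit within 500 bp from the last base of the stop codon (horizontal axis, bp along transcription) for the 9 genes with summits at 6 h only, the 11 genes with summits in all 4 libraries and the 2 genes with summits at 0 h only. Grey bars are the annotated genes. Many summits at both times lie near 0, while others lie well inside genes, at 0 h for example in NOP56, NOG1, RPA190 and RPA135. RRP5 has 6 h summits along its length, and the best-scoring 6 h summits of NOG2 and RPA190 lie 341 to 484 bp past the stop codon.

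Many of these sites are next to the end of another gene. The next gene downstream converges on the list gene at 28 of the 40, or 70%, against 51.6% of placed genes. Of the summits within 250 bp of list genes, 18 of 42 and 18 of 33 at 6 h, and 7 of 22 and 7 of 23 at 0 h, lay inside another gene or up to 500 bp past its end. The same shares over all placed genes are not given here, so these counts describe the list only. When summits in or up to 500 bp past another gene were left out, 4 genes were 6 h-only (RRP5, ERB1, LTV1 and REI1). That is 10% of the list, against 1.14% of all placed genes. By the same rule 2 genes were 0 h-only (NOP56 and RPA190), or 5%, against 2.56%. The IMP4 and SOF1 calls were lost, since MLF3 ends 326 bp from the IMP4 summit of 6 h replicate 2 and PSR1 ends 341 and 338 bp from both SOF1 summits. MLF3 and PSR1 are on the other strand, and the reads behind a summit carry no strand in these lists.

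Other genes of the pathway, on lists that exclude the 40, were called by the same rule, which took 4.31% of all placed genes as 6 h-only and 3.06% as 0 h-only. Of 30 further placed genes for the small-subunit processome and small-subunit assembly, 7 were 6 h-only (SGD1, KRI1, RCL1, UTP23, NAN1, MRD1 and NOC4) and 0 were 0 h-only, and 10 had no summit. NOC4 had scores of 14.3 and 10.8 at 6 h, at 140 and 39 bp past the stop codon, and the other 6 genes scored 2.96 to 8.54. Of 23 further large-subunit assembly genes, 1 was 6 h-only, REA1, which encodes a giant ATPase, with scores of 4.73 and 6.48, and 0 were 0 h-only. Of 4 with summits in all 4 libraries, ARB1, SDO1 and BUD20 had both 6 h percentiles above both 0 h percentiles, against 32.2% of all such placed genes. At MRT4 they overlapped, with 73.5 and 51.5 at 6 h and 9.14 and 57.2 at 0 h. By the same rule it was 2 of 4 in the small-subunit set (SNU13 and BUD21). In the polymerase set below it was 2 of 2 (RRN3 and RET1). BUD20 had scores of 32.7 and 41.7 at 6 h, against 7.99 and 15.6 at 0 h. Of 16 further genes for subunits and initiation factors of polymerases I and III, RPC37, RRN11 and RPC82 were 6 h-only and RPC19 was 0 h-only.

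Of 7 placed regulators of these genes, 1 was 6 h-only and 1 had summits throughout. TOD6 encodes a repressor of ribosome biogenesis genes and had scores of 7.69 and 12.7 at 6 h, with none at 0 h within 250 bp. DOT6, which encodes its close relative, had scores of 3.96 and 4.32 at 6 h, against 8.26 and 9.11 at 0 h. The DOT6 percentiles were 20.6 and 17.5 at 6 h, below the 53.4 and 57.8 at 0 h. Its best summit lay at -1246 and 178 bp from the stop codon in 6 h cells, against -2095 and -2077 bp in 0 h cells, where a negative value is inside the gene.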

How the data were processed

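Rpb1 immunoprecipitation libraries were deposited as 1 summit list per library, without pooling of replicates. The submitters' processing notes name MACS2 2.2.7.1, a peak caller, besides Bowtie2 2.2.4, fastp 0.20.1 and SAMtools 1.10, but do not say what each did. The score deposited by the authors is a −log10 of p or q (which one is unstated), in the layout of MACS2, with no scaling between libraries. For the build, the peak threshold and the inputs' use, the answer is not given in the sources used here. Read depth is unknown.

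Groups and replicate numbers came from the sample titles. Genes and strands came from the RefSeq R64 table. Between 87.0% and 100% of ribosomal protein and small nucleolar RNA genes had a summit within 250 bp on the 8 chromosomes used. Elsewhere it was 0 to 30% except on VI (3 genes, 100%), which the member rule leaves out. Genes were called by presence in the 4 libraries. The best-scoring summit per gene and library gave rank and position. Scripts (Python 3.11.15, pandas 2.3.3, numpy 2.4.6) were tested on simulated summits. Values are given for every gene found only at one time or in all 4 libraries, and the rest are summarised. Members and lists were chosen with earlier results of these data known, so no test was made over the list.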

Additional observations from a re-analysis of the deposited data

How the results depend on the processing

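Of 85 alternative values, 51 stayed within 1.5 times the count, or within 1 SD between replicate libraries of the list's median (24.1 bp for positions, 6.28 points for percentiles). This rule compared counts and not the genes counted, which could change. With 500 bp, for example, 4 genes were downstream, against 3, and only CBF5 and DBP2 were in both sets. The 34 other values were as follows, and their cause was not tested where the setting itself does not show it. With gene bodies alone, 2 genes had summits in all 4 libraries, of which 1 was displaced downstream and 2 ranked higher at 6 h, with a median displacement of 667 bp and a percentile difference (6 h minus 0 h) of 18.9 points, against 12.5 in the 250 bp window. With 500 bp, 0 genes were 0 h-only, 18 had summits in all 4 libraries, 10 ranked higher and the median displacement was 27 bp, against 67.5 bp. With the better-scoring 50% of summits, 1 gene was 0 h-only, 4 were in all 4 libraries, 1 was downstream, 1 ranked higher, the displacement was 242 bp and the percentile difference, with its direction turned, was -0.836 points. Leaving out summits inside other protein-coding genes gave 39.25 bp, and moving positions by the offset between strands gave 8.5 bp. Leaving out summits in or up to 500 bp past another gene gave 4 genes found only at 6 h, 2 in all 4 libraries, 1 downstream, 2 ranked higher, 667 bp and 18.9 points. Without each library in turn, genes found only at 6 h numbered 9 to 14, downstream genes 3 to 10 and the displacement 10 to 152 bp (fewer libraries make the rule less strict). Not among the 34 was the rule requiring a shared position with no summit of the other time within 500 bp. It gave 6 genes for 6 h and 3 for 0 h, both within the limit of 1.5 times.

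Replicate numbers are shared between times, but same-numbered deviations correlated at only 0.033 over genes, so the numbers were taken as labels only. Under a replicate block, the mean within pairs came to 14.5 genes found only at 6 h, 8.5 downstream and a displacement of 117.25 bp. The offset between strands, the rule on neighbouring ends, the shared-position rule and the count of higher ranks were chosen after seeing the data.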

Other observations

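Some list genes stand next to other genes of the same pathway. Of the 40, 7 had a neighbour in the list or in the further lists. RPA43 lies 804 bp from RPA190 on the other strand, and both encode polymerase I subunits. RPA43 had a summit in 6 h replicate 1 alone, with a score of 8.15. RPC19 lies 439 bp upstream of DBP2 on the same strand and encodes a subunit common to polymerases I and III. It had summits only at 0 h, with scores of 4.96 and 4.28, while DBP2 had its best ranks at 6 h. RPC25, a polymerase III subunit gene 299 bp from LTV1, had none. ESF2 lies upstream of NOG2 by 243 bp and had 1 summit, of 4.36, in 6 h replicate 1. PWP1 and NOP56 are in tandem, 398 bp apart, and their only summit in that gap was one of 2.41 in 6 h replicate 1.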
